A study of Mus musculus with 6 samples.

Results

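Voltage-gated sodium and calcium channels open on depolarization of the membrane, sodium channels to carry the action potential and calcium channels to admit the calcium that drives transmitter release, excitability and transcription. Each is a large pore-forming alpha subunit with smaller auxiliary subunits that set its surface level and gating, and the genes fall into families that stem from duplicated ancestors. In neural tissue most of them are known from neurons, but glia and progenitor cells also make some of them. Here the genes were followed in neurospheres, free-floating spheres that grow from neural stem/progenitor cells, with and without additional Bmi1, a Polycomb group gene whose product represses transcription through chromatin.

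The members were all genes whose symbol begins with Cacna, Cacnb or Cacng, or is Scn followed by a number and a or b, and that have at least 1 probe set naming no other gene. These were 35 of 19938 genes measured in this way, 11 of sodium channels and 24 of calcium channels or of the gamma family that shares their name. For each gene the probe set with the highest mean over all 6 arrays was taken. Probe sets that name several genes were not used, among them 3 shared by Scn1a, Scn2a, Scn3a or Scn9a.

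RNA came from 6 samples of neurospheres of the lateral ventricle wall, taken from CD1 mice, an outbred strain, aged 4 to 6 weeks, with 1 Affymetrix Mouse Gene ST 1.0 array each. In the empty vector group (n = 3) the cells carried a retroviral vector with eGFP alone, and in the Bmi1 overexpression group (n = 3) the pCMMP-Bmi1 vector (so named in the labels, whereas the study's text speaks of a FLAG-tagged Bmi1 for the arrays). All cells were sorted on eGFP, so that both groups consist of transduced cells with forced expression from a virus, and were grown with EGF and FGF at clonal density, 2000 cells per well. The design names independent cultures without naming the mice, and the p-values cover no more than the spread among these cultures, which may be technical. In the labels of every array, the source field disagrees with title, transduction and genotype, which all name the same group and were followed. The values are deposited log2 values of robust multi-array average (RMA) per probe set, and a difference of 1 is a 2-fold change.

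Every difference below is the Bmi1 mean minus the empty vector mean, in log2 units. A gene is said to rise or fall where limma gave it an adjusted p under 0.05, adjusted by Benjamini-Hochberg over the 35557 probe sets of the table, of which 5.7% passed. Array medians were 4.37 to 4.43 with the empty vector and 4.44 to 4.45 with Bmi1, so that every Bmi1 median was slightly higher. The probe set of Bmi1 itself was at 7.70, 8.40 and 8.31 in the control arrays and at 9.18, 8.36 and 8.42 in the Bmi1 arrays, a difference of 0.52 with overlapping groups (adjusted p = 0.38 from limma). It therefore gives no check of the labels, and whether its probes lie within the cDNA of the vector was not examined. The table holds no detection calls. As a guide, 95% of 1023 probe sets for olfactory receptors, which are mostly silent outside the nose, had a mean of at most 3.74. Of the 35 channel genes, 27 lay above this value and 8 did not. Of 15 neural stem and progenitor markers, 13 lay above it, and those that did not were Gfap and Fut4.

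Of the 35 channel genes, Scn7a, Cacna2d3 and Cacng5 fell, Cacng4 and Cacna1d rose, and 30 did not pass the test. In these bulk samples, fewer cells of a type and less RNA per cell cannot be told apart. The 5 calls amount to 14.3% of the members, against 7.35% of all 19938 genes, 2.98% that rose and 4.37% that fell. The median difference was 0.01 for the members and 0.01 for all genes. The groups did not overlap for 11 members or 31.4%, against 31.3% of all genes. In 6 of the 11 all Bmi1 arrays were higher and in 5 lower, against 15.3% and 15.9% of all genes. The members' median and share without overlap thus lay at those of all genes, and the account below is one of single members. The largest differences, those of Scn7a and Cacna2d3, were both falls, and 17 of all genes had a difference as low as that of Cacna2d3 or lower. These 2 were also the members that passed the criteria in the study's methods, an unadjusted p under 0.001 with at least a 2-fold change, which 1.03% of all genes did.

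**Figure D1:**
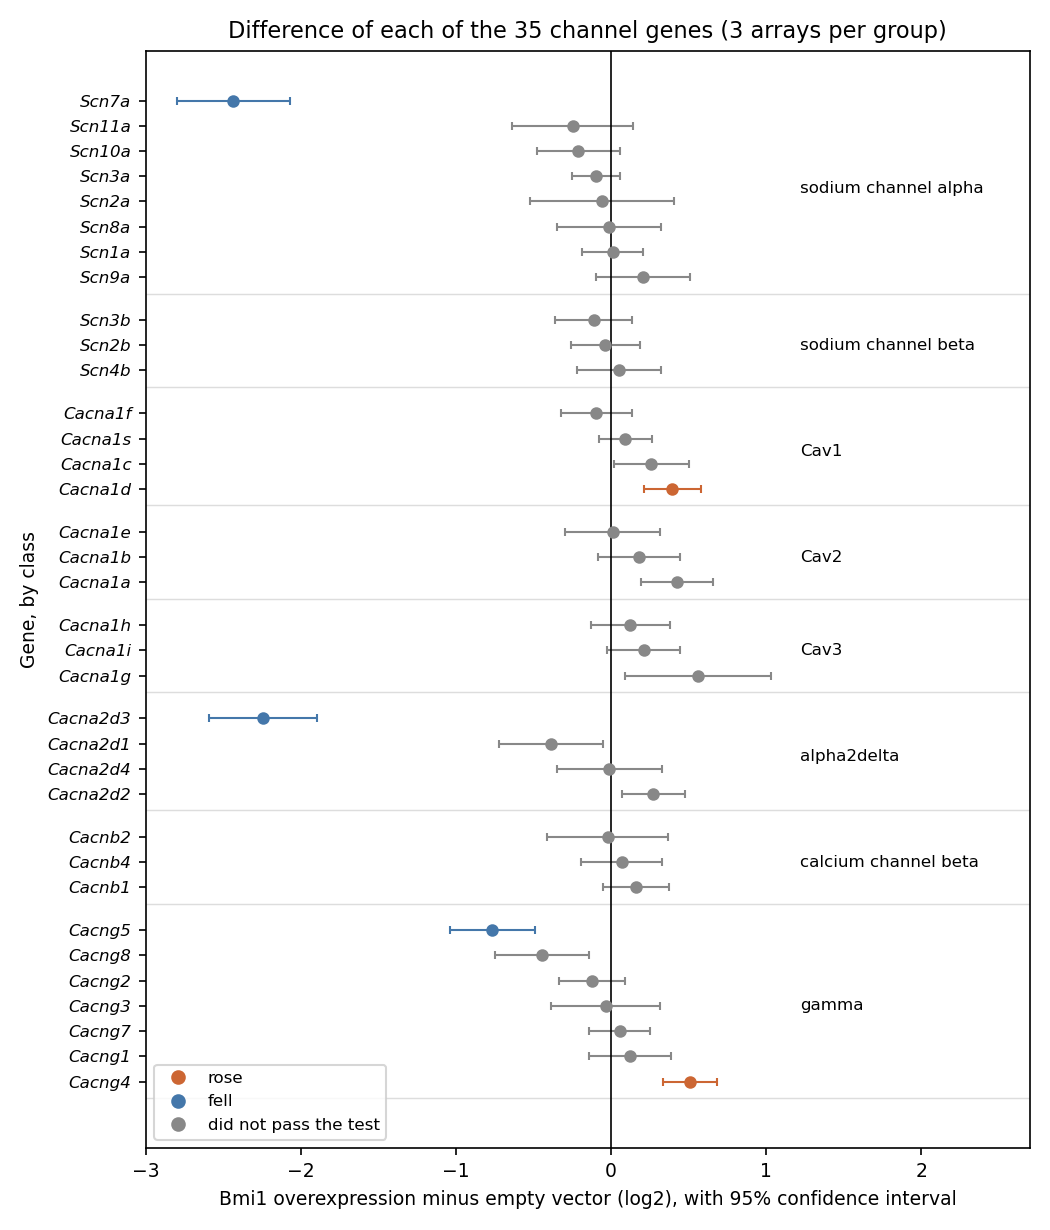
Difference between Bmi1 overexpression and empty vector on the log2 scale (x axis) for each of the 35 channel genes (y axis, grouped by class), with the 95% confidence interval from limma and 3 arrays per group. Scn7a at -2.44 and Cacna2d3 at -2.25 stand far to the left, and the 23 members with the largest adjusted p lie between -0.25 and 0.21.

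Of the sodium channel alpha genes, which encode the pore, Scn7a fell and the other 7 did not pass the test. Scn7a encodes Nax, an atypical member that responds to the sodium level outside the cell rather than to voltage and is known from glia of sodium-sensing brain regions and from Schwann cells. The log2 values of Scn7a (probe set 10483353) were 4.85, 4.92 and 5.31 on the empty vector arrays and 2.40, 2.64 and 2.73 on the Bmi1 arrays. All Bmi1 arrays lay under the olfactory guide and all empty vector arrays above it, with a gap of 2.12 between the groups. The means were 5.03 ± 0.25 and 2.59 ± 0.17 (SD, n = 3 each), and the level fell 5.42-fold. In log2 units this is -2.44 (standard error 0.15, 95% confidence interval -2.80 to -2.07, adjusted p = 8.3e-04 from limma). Because the lower end is at the level of silent genes, this fold is approximate. For 1 gene taken alone, 3 arrays against 3 allow an exact permutation p of 0.1 at the least, which Scn7a and every other gene without overlap reached.

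The other sodium channel alpha genes, which carry the classical currents of neurons, had differences from -0.25 to 0.21, with a smallest adjusted p of 0.36 from limma. Of these, Scn2a, Scn8a and Scn10a lay above the olfactory guide. Scn8a, the main alpha subunit of mature nodes of Ranvier, had means of 4.90 and 4.89 with the empty vector and with Bmi1, a difference of -0.02 (95% confidence interval -0.35 to 0.32). Scn2a has 14 probe sets of its own, with means from 2.27 to 4.41, most of them under the olfactory guide. Their differences ranged from -0.29 to 0.09 and none passed the test (smallest adjusted p = 0.22 from limma). Scn1a, Scn3a, Scn9a and Scn11a stayed under the olfactory guide, with differences of 0.01, -0.10, 0.21 and -0.25. Their differences are those of probe sets at the level of silent genes. Scn10a, known from sensory neurons, had a difference of -0.21.

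The sodium channel beta genes encode single-pass subunits that also act in cell adhesion. None of the 3 measured passed the test. The means of Scn3b were 5.21 ± 0.12 without and 5.10 ± 0.14 with Bmi1 (SD, n = 3 each). Scn2b and Scn4b had differences of -0.04 and 0.05.

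Scn7a lies in a cluster of sodium channel genes on chromosome 2, in the order Scn3a, Scn2a, Scn1a, Scn9a and Scn7a among the measured protein-coding genes of RefSeq. None of the other channel genes of the cluster passed the test. Scn9a, directly next to Scn7a, had a difference of 0.21 and Scn1a of 0.01 (adjusted p = 0.44 and 0.96 from limma), with both at the dim end. On the other side, Gm1322 and Xirp2 had differences of 0.08 and 0.10. Of the 6 other genes in the stretch up to B3galt1, Ttc21b, which encodes a protein of ciliary transport, fell by 0.39 (adjusted p = 0.017 from limma).

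Of the 4 alpha2delta genes, Cacna2d3 fell and the other 3 did not pass the test. Alpha2delta subunits are extracellular auxiliary proteins that bring calcium channels to the surface, and those of Cacna2d1 and Cacna2d2 are the targets of gabapentin. Cacna2d3 (probe set 10418300) measured 7.94, 8.31 and 8.15 on the empty vector arrays and 6.06, 5.96 and 5.64 on the Bmi1 arrays. The groups were 1.88 apart, and all 6 arrays lay well above the olfactory guide. The means were 8.13 ± 0.18 and 5.89 ± 0.22 (SD, n = 3 each), and the level fell 4.74-fold. In log2 units this is -2.25 (standard error 0.14, 95% confidence interval -2.59 to -1.90, adjusted p = 8.9e-04 from limma).

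Cacna2d1 measured 6.79, 7.08 and 7.02 with the empty vector and 6.36, 6.55 and 6.81 with Bmi1. The highest Bmi1 array lay above the lowest empty vector array, so that the groups overlapped. The difference was -0.39 (95% confidence interval -0.73 to -0.05, adjusted p = 0.19 from limma). Its other probe set had a difference of -0.47 and did not pass either (adjusted p = 0.080 from limma). Of 13 other settings Cacna2d1 passed in 2, among them the mean of both probe sets (adjusted p = 0.040 from limma). Cacna2d2 was between 4.04 and 4.17 with the empty vector and between 4.28 and 4.50 with Bmi1, a difference of 0.27 (adjusted p = 0.14 from limma). Cacna2d4, known from the retina, had a difference of -0.01.

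**Figure D2:**
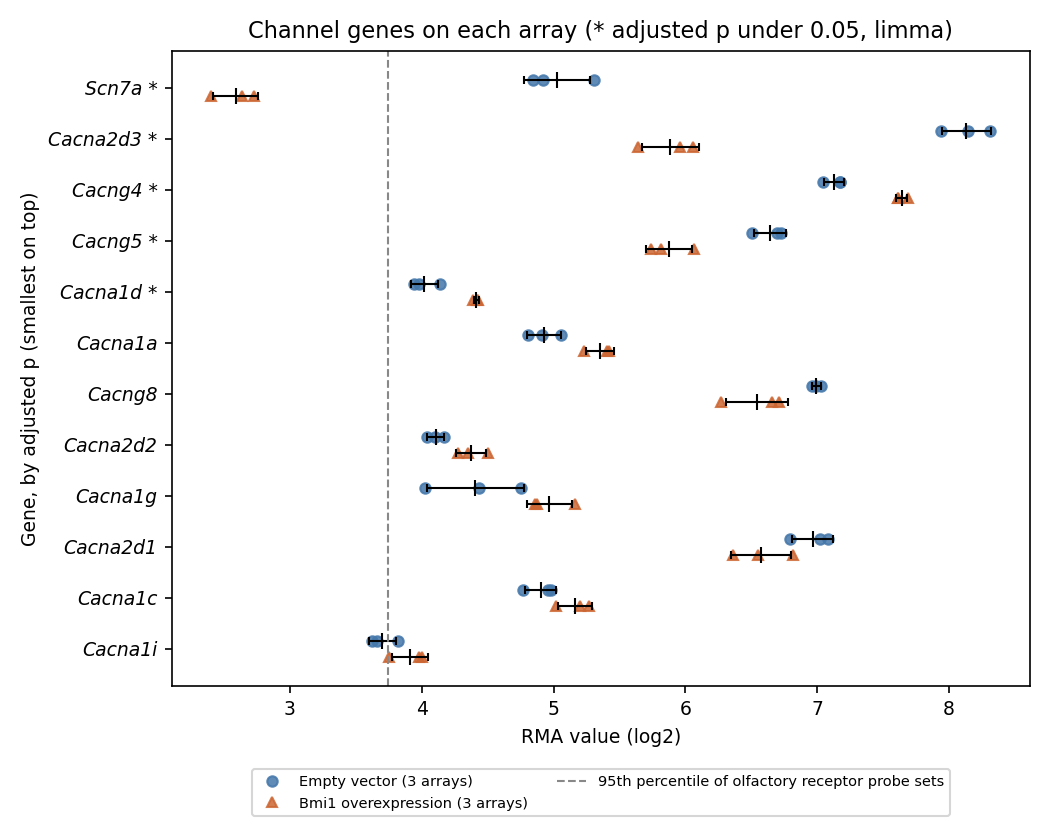
The x axis gives RMA values (log2) and the y axis the 12 channel genes with the smallest adjusted p. Each array is a point, a circle with the empty vector or a triangle with Bmi1, bars give the mean and SD (n = 3) and a dashed line stands at 3.74, the 95th percentile of olfactory receptor probe sets. For Scn7a the dashed line separates the groups, and the groups overlap for Cacna2d1 and Cacna1i.

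The start regions of Scn7a and Cacna2d3 are shown because these are the genes with the largest falls and their promoters differ in CpG content, the feature by which promoters bound by Polycomb proteins in mammals are best known. Each window runs from 250 bases before to 50 bases after the start of transcription in RefSeq (GRCm38.p6), written 5′ to 3′ on the strand of the gene, and capitals mark the dinucleotide CG. The window of Scn7a is chr2:66784861-66785160 on the minus strand and that of Cacna2d3 is chr14:29721815-29722114 on the minus strand.
Scn7a: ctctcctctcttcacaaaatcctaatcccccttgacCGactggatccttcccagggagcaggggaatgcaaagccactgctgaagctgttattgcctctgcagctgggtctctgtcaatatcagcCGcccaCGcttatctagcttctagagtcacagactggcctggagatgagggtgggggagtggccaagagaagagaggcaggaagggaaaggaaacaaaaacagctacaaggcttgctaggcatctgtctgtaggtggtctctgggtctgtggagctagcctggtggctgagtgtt
Cacna2d3: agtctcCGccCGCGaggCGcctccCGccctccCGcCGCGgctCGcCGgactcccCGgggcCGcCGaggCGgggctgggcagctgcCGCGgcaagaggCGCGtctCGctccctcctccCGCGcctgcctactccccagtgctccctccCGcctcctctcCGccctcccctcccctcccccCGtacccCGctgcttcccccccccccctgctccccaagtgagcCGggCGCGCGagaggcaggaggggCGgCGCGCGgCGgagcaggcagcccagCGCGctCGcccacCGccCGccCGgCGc
The window of Scn7a holds 3 CG dinucleotides and is 54.0% G and C, whereas that of Cacna2d3 holds 41 and is 81.3% G and C. Over all 32851 windows of the table the median was 7, and 3.46% held 41 or more. Of the 35 members, 27 had a window in the table, with 37 windows in all and a median of 11 CG dinucleotides. The members without one were Cacna1a, Cacna1g, Cacna1h, Cacna2d4, Cacng1, Cacng4, Scn3a and Scn3b. At least 20 were found in 37.8% of these windows, against 26.5% of all windows. Cacna2d1 and Cacna2d2, whose differences did not pass the test, had 42 and 43 CG dinucleotides, slightly more than Cacna2d3. Cacna1d has a window with 63 and one with 4, and Cacng5 has one with 17 and one with 5. Called members were thus found at either end of the range of CpG content. The arrays measure RNA only, and no binding or methylation at these starts was measured here.

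All pore-forming calcium channel genes were on the array with a probe set of their own, and 9 of 10 had a difference above 0, although only Cacna1d passed the test. Their median difference was 0.19, against 0.01 for all genes, of which 10588 of 19938 were above 0. Of the 9, Cacna1e had the smallest difference, 0.01, which changed sign in 5 alternative settings. Its mean over all arrays lay under the olfactory guide. The Cav1 genes encode L-type channels, which couple depolarization to transcription. Cacna1d (Cav1.3) measured 4.14, 3.94 and 3.98 with the empty vector and 4.43, 4.42 and 4.39 with Bmi1 (probe set 10418355). Every Bmi1 array was higher, by a gap of 0.25 between the groups. The means were 4.02 ± 0.10 and 4.41 ± 0.02 (SD, n = 3 each), and Cacna1d rose by 0.39 (standard error 0.08, adjusted p = 0.037 from limma). The call was lost when either empty vector replicate 2 or 3 or any Bmi1 replicate was left out, with an adjusted p of 0.092 to 0.13 from limma. Cacna1c (Cav1.2), the main L-type gene of brain and heart, measured 4.96, 4.98 and 4.77 with the empty vector and 5.02, 5.27 and 5.20 with Bmi1, without overlap, and had a difference of 0.26 (95% confidence interval 0.02 to 0.50, adjusted p = 0.22 from limma). Cacna1s and Cacna1f, the L-type genes of skeletal muscle and retina, had differences of 0.09 and -0.09.

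The Cav2 genes encode the presynaptic channels that trigger transmitter release. Cacna1a (Cav2.1) measured 5.06, 4.91 and 4.81 with the empty vector and 5.41, 5.42 and 5.23 with Bmi1. The groups did not overlap, with a gap of 0.17. The difference of 0.42 (95% confidence interval 0.19 to 0.66, adjusted p = 0.061 from limma) did not pass the test, nor did it with any 1 array left out. Of 12 other settings it passed in 5. Among these were 1 probe set per gene and a filter of dim probe sets at a mean of 5 (adjusted p = 0.017 and 0.013 from limma). Cacna1b (Cav2.2) and Cacna1e (Cav2.3) had differences of 0.18 and 0.01.

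The Cav3 genes encode T-type channels, which open near the resting potential. Cacna1g was the most variable member with the empty vector, with 4.76, 4.03 and 4.44, against 4.86, 4.88 and 5.16 with Bmi1. The groups were separated by 0.11 only, and the difference of 0.56 (95% confidence interval 0.09 to 1.03) had an adjusted p of 0.18 from limma. Cacna1i measured 3.63, 3.66 and 3.82 with the empty vector and 3.98, 3.75 and 4.00 with Bmi1, with overlapping groups and a difference of 0.21 (adjusted p = 0.31 from limma), and Cacna1h had a difference of 0.12.

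The calcium channel beta genes encode cytoplasmic subunits that bind the pore and aid its transport to the surface. Cacnb1, Cacnb2 and Cacnb4 had differences of 0.16, -0.02 and 0.07, none of which passed the test (smallest adjusted p = 0.39 from limma).

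Of the 7 gamma genes, Cacng4 rose, Cacng5 fell and 5 were not called. The first gamma subunit, encoded by Cacng1, belongs to the calcium channel of skeletal muscle, whereas Cacng2, Cacng3, Cacng4, Cacng5, Cacng7 and Cacng8 encode transmembrane AMPA receptor regulatory proteins (TARPs), which traffic and gate glutamate receptors. Cacng4 (probe set 10392369) measured 7.17, 7.18 and 7.04 with the empty vector and 7.62, 7.62 and 7.69 with Bmi1. Its Bmi1 arrays were all higher and close together. The means were 7.13 ± 0.08 and 7.64 ± 0.04 (SD, n = 3 each), and Cacng4 rose by 0.51 (standard error 0.07, 95% confidence interval 0.34 to 0.68, adjusted p = 0.012 from limma). The call was kept without any 1 array and lost in 3 other settings, with an adjusted p of up to 0.088.

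Cacng5 (probe set 10392374) moved the other way. It measured 6.50, 6.69 and 6.73 with the empty vector and 6.07, 5.74 and 5.81 with Bmi1. The groups were 0.44 apart, with Bmi1 replicate 1 nearest to the controls. The means were 6.64 ± 0.12 and 5.87 ± 0.17 (SD, n = 3 each), which differ by -0.77 (standard error 0.11, 95% confidence interval -1.04 to -0.49, adjusted p = 0.015 from limma). The call was lost without empty vector replicate 2 or 3 or without Bmi1 replicate 2 or 3 (adjusted p = 0.053 to 0.064 from limma).

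Cacng8, a TARP known from hippocampus, measured 6.99, 7.03 and 6.96 with the empty vector and 6.27, 6.66 and 6.71 with Bmi1. Bmi1 replicate 1 was the lowest, and all Bmi1 arrays were lower than all controls. The difference of -0.45 (95% confidence interval -0.75 to -0.15) did not pass the test over all probe sets (adjusted p = 0.11 from limma). It did not pass with any 1 array left out either. Of 13 other settings it passed in 4, among them 1 probe set per gene (adjusted p = 0.035 from limma). Cacng7 had a difference of 0.05 (95% confidence interval -0.14 to 0.25), Cacng2 (stargazin) of -0.13, Cacng3 of -0.04 and Cacng1 of 0.12, and none of these passed the test. The AMPA receptor subunits that TARPs bind, looked up after the values of the gamma genes were seen, had differences of 1.13 for Gria1, -0.39 for Gria2, -0.65 for Gria3 and -5.10 for Gria4, all past the test (largest adjusted p = 0.035 from limma). The Bmi1 arrays of Gria4 lay under the olfactory guide, so that the size of its difference is approximate.

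The called calcium channel and gamma genes lie in pairs. Cacng4 and Cacng5 are next to each other on chromosome 11 beside Cacng1, and the neighbours moved in opposite directions, with Cacng4 at 0.51, Cacng5 at -0.77 and Cacng1 at 0.12. The gene next to Cacng5, Prkca, which encodes protein kinase C alpha, fell by 0.48 (adjusted p = 0.037 from limma). Cacna2d3 and Cacna1d lie on chromosome 14 and also moved in opposite directions, -2.25 against 0.39. In order of start coordinate, 5 measured protein-coding genes come between them, and whether any of these overlaps a channel gene was not examined. None of the 5 passed the test, with differences from -0.11 to 0.20. On the far side of Cacna2d3, Wnt5a, a Wnt ligand, fell from 9.71 to 8.77, a difference of -0.93 (adjusted p = 0.0060 from limma), and Dcp1a, next to Cacna1d, fell by 0.39 (adjusted p = 0.025 from limma). Of 20 distinct genes that are no channel gene and are among the nearest 3 measured on either side of a called member, 4 fell, none rose and 16 did not pass the test, against 4.37% of all genes that fell and 2.98% that rose. These neighbours were looked at after the values of the members were seen.

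**Figure D3:**
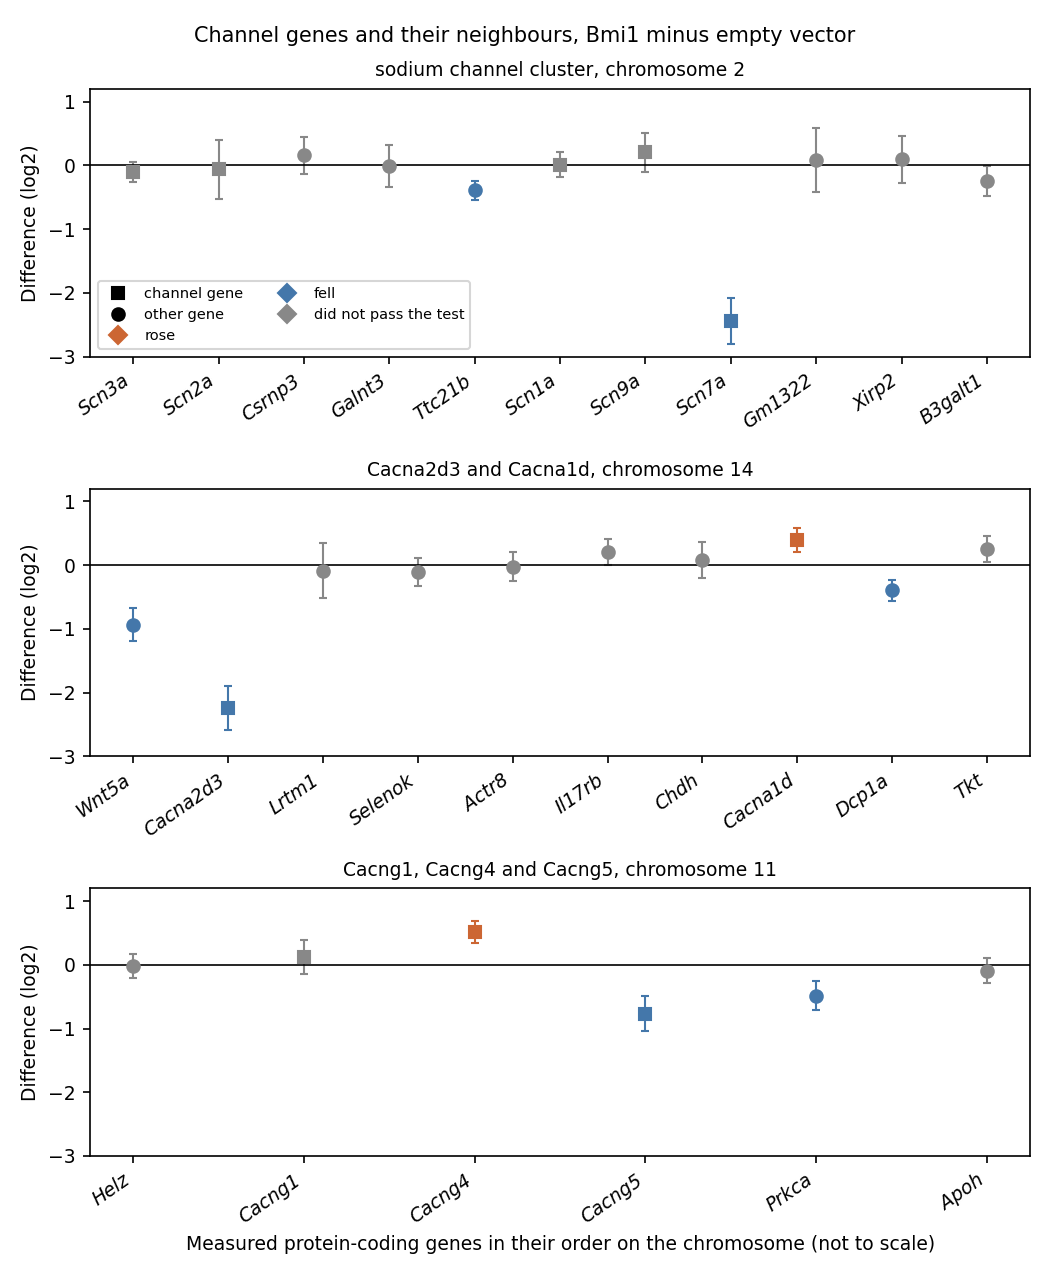
Difference between Bmi1 overexpression and empty vector on the log2 scale (y axis) with the 95% confidence interval from limma, for the measured protein-coding genes of 3 stretches in chromosomal order (x axis, not to scale), squares for channel genes and circles for other genes. Scn7a alone passed the test among the 5 channel genes of its cluster, and Cacng4 and Cacng5 lie on opposite sides of 0.

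Proteins that bind or modulate the channels, and related cation channels, were looked at as further genes of the pathway. Of 39 measured genes on 3 lists, 3 rose, 3 fell and 33 were not called, which gives 15.4% called against 7.35% of all genes. Of 13 genes for proteins that bind or modulate sodium channels, 3 fell and 1 rose, with a median difference of 0.03. Ank2 (ankyrin-B, which anchors membrane proteins to the spectrin skeleton) measured 9.71, 9.95 and 9.87 with the empty vector and 9.24, 9.26 and 9.13 with Bmi1, a fall of 0.63 (adjusted p = 0.011 from limma). Fgf12 and Fgf14, intracellular fibroblast growth factor homologues that bind the tail of sodium channels, fell by 0.58 and 0.91 (adjusted p = 0.015 and 0.027 from limma). Their relatives Fgf13 and Fgf11 had differences of -0.36 and 0.43 and did not pass the test. Ank3, a relative of Ank2, had a difference of -0.11 and did not pass either (adjusted p = 0.72 from limma). Nfasc (neurofascin, which clusters sodium channels at nodes and at the axon initial segment) rose by 0.66 (adjusted p = 0.031 from limma). These calls were not all stable. That of Ank2 was lost without empty vector replicate 3 (adjusted p = 0.053), that of Fgf12 without empty vector replicate 2 or 3 or Bmi1 replicate 3, that of Fgf14 without any 1 array other than Bmi1 replicate 2, and that of Nfasc without any 1 array.

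Of 16 genes for proteins that bind or modulate calcium channels, Crmp1, a collapsin response mediator protein of growing axons, rose by 0.83 (adjusted p = 0.0027 from limma), and 15 did not pass the test. The median was 0.09. The RGK proteins, which inhibit calcium channels, were among them, with differences of 0.20 for Gem, 0.14 for Rem2 and 0.04 for Rrad. Of 10 genes for related cation channels and their accessory proteins, 1 rose and 9 did not pass the test. The proton channel gene Hvcn1 rose by 0.31, from 3.41 to 3.72 (adjusted p = 0.0496 from limma), with means of both groups under the olfactory guide, and its call was lost without any 1 array. Nalcn, the sodium leak channel, had a difference of -0.24, and the genes of its accessory proteins, Unc79 and Unc80, of -0.49 and 0.05.

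**Figure D4:**
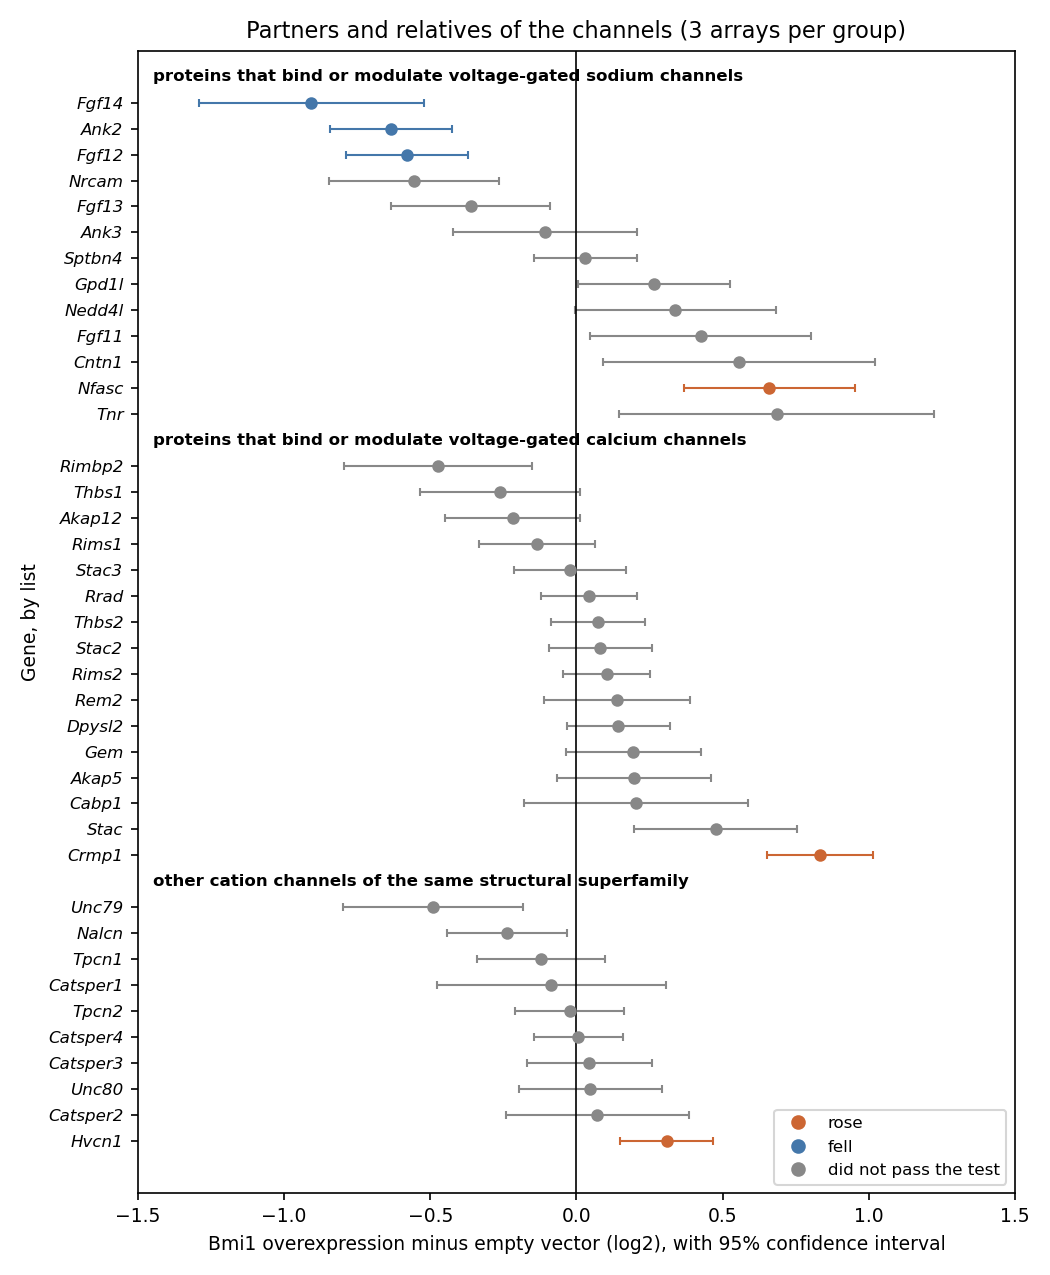
Difference between Bmi1 overexpression and empty vector on the log2 scale (x axis) with the 95% confidence interval from limma for 39 genes of 3 lists (y axis), 3 arrays per group. Fgf14, Ank2 and Fgf12 lie lowest among the sodium channel partners, and Crmp1 lies highest among the calcium channel partners.

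Markers of several cell types differed between the groups. Of 115 measured markers on 10 lists, 17 rose and 5 fell, which gives 19.1% called against 7.35% of all genes. Of 12 oligodendrocyte precursor markers, 6 rose and none fell, with Myt1 up by 1.58, and the sum of their values on the linear scale was 7182 to 7488 with the empty vector and 7968 to 8156 with Bmi1. Of 12 astrocyte markers, 5 rose and none fell, with Ntsr2 up by 2.53. Of all 12, 9 lay above 0 and 3 below, with a median difference of 0.58. An unadjusted p under 0.05 from limma was found for 7 of those above 0 and 2 of those below. The brightest, Aldoc, had a difference of -0.28 (adjusted p = 0.065 from limma). The sums were 5390 to 5755 and 6233 to 7069. Sox9 and Gfap are also on the list of neural stem and progenitor markers. The rise of Sox9 is therefore counted in both lists, but once in the total. Of 13 pericyte, smooth muscle and fibroblast markers, Twist1 and Acta2 had differences of -2.40 and -1.34 and 11 did not pass the test, with sums of 747 to 1011 and 423 to 521. Of all 13, 7 lay above 0 and the median difference was 0.02, so that the lower sums come from Acta2 and Twist1. Dcn, Lum, Pdgfrb, Rgs5 and Kcnj8 lay under the olfactory guide. Of 11 myelinating oligodendrocyte markers, Ugt8a and Opalin had differences of -1.53 and -0.78 and 9 did not pass the test, with sums of 593 to 625 and 683 to 845. Most of each sum is Cnp, with means of 8.73 with the empty vector and 9.18 with Bmi1, which did not pass (adjusted p = 0.090 from limma). Of all 11, 7 lay above 0 and the median difference was 0.09, and the mean of Opalin over all arrays lay under the olfactory guide. The calls of Acta2 and Opalin were lost when some of the arrays were left out one at a time (adjusted p up to 0.089 and 0.083 from limma). Of 20 neuroblast and neuron markers, 4 rose and 1 fell, with sums of 3278 to 3419 and 3313 to 3495 that overlapped. The marker that fell, Map2, is the brightest of the list and weighs most in these sums. Its means were 10.63 with the empty vector and 10.16 with Bmi1 (adjusted p = 0.012 from limma). Of all 20, 14 lay above 0 and the median difference was 0.20, so that the overlap of the sums does not describe most of the list. Of 15 neural stem and progenitor markers, 3 rose and none fell, with sums of 15201 to 15806 and 16092 to 16782. Of all 15, 10 lay above 0 and 5 below, with a median difference of 0.22. The brightest, Vim and Fabp7, weigh most in these sums, and neither passed the test (adjusted p = 0.90 and 0.24 from limma). None of 8 ependymal, 11 microglia, 8 endothelial and 7 Schwann cell markers passed limma at an adjusted p under 0.05, and 2, 0, 1 and 3 of them had an unadjusted p under 0.05. The sums of the Schwann cell markers were 312 to 346 and 336 to 386, with Cdh19 lowest at a difference of -0.80 (adjusted p = 0.060 from limma), and those of the endothelial, microglia and ependymal markers were at most 196 on any array. The part of these cell types in the differences of Scn7a, Cacna2d3, Cacng4, Cacng5 and Cacna1d was not tested.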

How the data were processed

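The deposited log2 values were made by the authors with RMA (background correction, quantile normalization and probe summary) with Affymetrix Expression Console, both named in the submitters' processing notes. RNA, 300 ng per array, was hybridized to 1 array per sample. The version is not given in the sources used here. Gene names are those of the platform annotation, which gives 1 gene for 21789 of 35557 probe sets. All 35 members matched the RefSeq table of GRCm38.p6 by Entrez identifier. It was used for gene order and start regions. RMA draws values together across arrays and compresses changes of dim probe sets.

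Groups were taken from the titles. The main test, with both directions counted, was limma 3.58.1 (R 4.3.3, lmFit then eBayes, unfiltered), checked on simulated data. Precision is limited by the 3 arrays per group. Members and lists were chosen with earlier results of these data known. Of 41 listed partner and 119 listed marker symbols, 39 and 115 had a probe set. Values are given in full for members past the test and the next by adjusted p up to 12, and for every other member as a difference. Of the called genes, up to 6 of a partner list and up to 3 of a marker list are named, most with their difference only. The other called markers are counted but not named. Fgf13, Fgf11, Gem, Rem2, Rrad, Nalcn, Unc79, Unc80, the neighbours and the AMPA receptor subunits were named after their values were seen. The same holds for Ank3, Map2, Cnp, Cdh19, Olig1, Aldoc, Vim and Fabp7. Replicate numbers were not used to pair the samples in the main test, and the labels do not say whether cultures of the same number share an origin. Deviations of arrays with the same number from their group means correlated at 3.4e-05, -0.032 and -0.018. With 3 arrays per group this cannot decide whether they are paired. Alternatives were other tests, variance priors, filters, normalizations, probe set summaries, array weights, a replicate block and leaving out each array. Figures were made in matplotlib 3.10.9.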

Additional observations from a re-analysis of the deposited data

How the results depend on the processing

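The falls of Scn7a and Cacna2d3 kept their direction and stayed past the threshold in all alternatives that could test them, except that Scn7a missed it under the Welch form of the t-test (adjusted p = 0.051), and Scn7a is removed by the filters at a mean of 5 or 6. No called member changed sign. Of 30 members not called, 10 changed sign in at least 1 alternative and 3 (Cacna1a, Cacng8 and Cacna2d1) passed in some.

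In place of 5 members called (2 rose, 3 fell), there were 2 (0 and 2) by the methods' t-test at its thresholds, 3 (1 and 2) after Benjamini-Hochberg, 1 (0 and 1) with the Welch form and 2 (0 and 2) with the replicate block, where Cacng4, Cacng5 and Cacna1d no longer passed (adjusted p = 0.080, 0.083 and 0.12). There were 6 (3 and 3) with a trend and robust prior, 5 (1 and 4) with the filter at a mean of 6, 7 (3 and 4) with 1 probe set per gene and 8 (3 and 5) with a mean over every probe set of a gene. Leaving out each array in turn gave 3 to 5 calls, 1 to 2 that rose and 2 to 3 that fell.

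Of the partners, 6 were called, 0 by the t-test at its thresholds, 4 after Benjamini-Hochberg, 0 by the Welch form, 1 with the replicate block, 10 with 1 probe set per gene and 10 with the mean of probe sets, and 1 to 5 with an array left out. Of the markers, 22 were called, 7 by the t-test at its thresholds, 1 by the Welch form, 33 with 1 probe set per gene and 33 with the mean of probe sets, and 14 to 20 with an array left out. Median centring lowered all differences by 0.05 and changed no call of a member. The causes were not tested, except that fewer features are adjusted over with filters or 1 value per gene.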
